A study of Mus musculus with 22 samples.

Results

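The 8 genes described here, Dnmt1, Dnmt3a, Tet1, Tet2, Tet3, Tdg, Mbd2 and Uhrf2, encode enzymes and binding proteins of cytosine methylation and oxidation. They were chosen by name for their roles, under a rule that uses no measured value, from the 21755 protein-coding genes of GENCODE vM21 on chromosomes 1 to 19 and X. Each gene was placed at its annotated span in GRCm38, the assembly also called mm10. Its 5mC was read from every 100 kb bin that it overlapped, and its 5hmC from the 1 Mb bin that held it. No gene filled a bin. The share of the 100 kb bin that a gene overlapped most ranged from 21% for Tdg to 95.4% for Tet1, and the share of the 1 Mb bin from 2.10% for Tdg to 10.8% for Dnmt3a. Between these were Dnmt1 (5.27%), Mbd2 (5.79%), Uhrf2 (6.32%), Tet2 (8.15%), Tet3 (9.67%) and Tet1 (10.4%). Most of the DNA behind every 5hmC value therefore lay outside the gene.

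The tissues were the whole cerebral cortex without the hippocampus, the whole olfactory bulb and the whole cerebellum of female C57BL/6 mice at 8 weeks of age, with no treatment or engineered allele given for any group. OxBS-seq, which reads 5mC alone because 5hmC is oxidized before the bisulfite step, was done on 3 cortex libraries and on 2 libraries each of olfactory bulb and cerebellum. TAB-seq, which reads 5hmC alone because 5hmC is shielded by a glucose while 5mC is oxidized, had 3 libraries of each tissue. The replicates, called biological in one place of the study and technical in another, came from independent mice. The study describes the tissues as dissected from a mouse, but which libraries share a mouse is not given, and the main fits were unpaired. P-values rest on the spread between libraries, which limma pools over all bins or genes, in part for 5mC and to a single value for 5hmC. The RNA-seq libraries (2 of each tissue) were not analysed here, so nothing below is a level of expression. Levels are fractions from 0 to 1 without read counts. The files give no depth for a bin, and the SD between libraries is the error given. Each tissue is a mixture of neurons and glia, and a change in the mixture cannot be told apart from a change within a cell type.

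DNA methyltransferases write 5mC. DNMT1 copies it to the new strand after replication, whereas DNMT3A sets it on DNA that lacked it and remains active in neurons. TET1, TET2 and TET3 oxidize 5mC to 5hmC and further, and TDG cuts out the products of further oxidation so that repair can restore cytosine. MBD2 binds methylated CpG sites and UHRF2 is a reader of modified cytosine. 5hmC is abundant in the brain, where it persists as a mark of its own in neurons.

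Across libraries of a tissue, Pearson's r over bins, which are not independent, ranged from 0.947 to 0.982 for 5mC in 25664 bins of 100 kb and from 0.994 to 0.998 for 5hmC in 2581 bins of 1 Mb, and no pair of libraries was identical. Cortex oxBS-seq replicate 3 had the lowest flank 5mC of the 3 cortex libraries around each of the 8 genes, and results that change without it are given with the value without it. The tissue labels were compared with 5mC over marker genes relative to the DNA around them. Of the 6 markers of cortical excitatory neurons, 4 were lowest in cortex, of the 6 of olfactory bulb interneurons 5 were lowest in olfactory bulb, and of the 9 of cerebellar neurons 6 were lowest in cerebellum. Dlx1 and Dlx2 share bins, as do Zic1 and Zic4, and counted once per locus the latter lists gave 4 of 5 and 5 of 8. The 3 Purkinje cell markers Pcp2, Calb1 and Itpr1 were lowest in cortex instead. Of 3 markers of astrocytes, 2 were lowest in cortex (Aldh1l1 and Gfap) and 1 in olfactory bulb (Slc1a3). The oligodendrocyte gene Mog was at -0.216, -0.243 and -0.0969 relative to its flanks in cortex, olfactory bulb and cerebellum, and Mobp at -0.0273, -0.0178 and -0.0246, and the part of glia in the differences between tissues was not tested.

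RefSeq promoters, from 250 bases before to 50 bases after a transcript start in GRCm38.p6, were found for 7 of the 8 genes. Mbd2 is named only. The promoters lay inside the 100 kb bin that the gene overlapped most. The 4 sequences below are shown because they come from the bin that was highest in 5mC in its neighborhood in every tissue (Dnmt1), from bins that were lowest in every tissue (Dnmt3a, Tet2), and from a bin that was lowest in cortex and cerebellum (Tdg). Capitals mark each CG, the dinucleotide in which the levels were measured.
Dnmt1, minus strand, chr9:20952574-20952873: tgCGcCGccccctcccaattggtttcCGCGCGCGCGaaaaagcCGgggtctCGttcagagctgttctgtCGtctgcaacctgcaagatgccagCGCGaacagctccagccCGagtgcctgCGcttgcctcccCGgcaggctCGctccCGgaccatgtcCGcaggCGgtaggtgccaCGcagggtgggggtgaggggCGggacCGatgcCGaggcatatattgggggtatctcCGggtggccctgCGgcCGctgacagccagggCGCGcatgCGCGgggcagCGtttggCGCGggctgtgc
Dnmt3a, plus strand, chr12:3806730-3807029: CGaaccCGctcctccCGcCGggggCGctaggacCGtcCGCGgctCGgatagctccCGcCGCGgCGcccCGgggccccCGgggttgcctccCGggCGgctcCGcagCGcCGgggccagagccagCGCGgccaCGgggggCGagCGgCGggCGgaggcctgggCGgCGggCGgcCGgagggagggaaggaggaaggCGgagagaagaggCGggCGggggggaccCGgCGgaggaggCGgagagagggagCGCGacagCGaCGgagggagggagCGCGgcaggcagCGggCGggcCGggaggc
Tet2, minus strand, chr3:133544341-133544640: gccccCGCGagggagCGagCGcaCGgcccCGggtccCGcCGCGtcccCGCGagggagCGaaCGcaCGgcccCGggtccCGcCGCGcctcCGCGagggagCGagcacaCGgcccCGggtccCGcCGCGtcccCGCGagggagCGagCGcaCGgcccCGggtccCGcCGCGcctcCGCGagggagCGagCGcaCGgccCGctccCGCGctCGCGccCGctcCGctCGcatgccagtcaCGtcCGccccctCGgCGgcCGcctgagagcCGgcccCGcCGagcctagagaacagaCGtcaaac
Tdg, plus strand, chr10:82629588-82629887: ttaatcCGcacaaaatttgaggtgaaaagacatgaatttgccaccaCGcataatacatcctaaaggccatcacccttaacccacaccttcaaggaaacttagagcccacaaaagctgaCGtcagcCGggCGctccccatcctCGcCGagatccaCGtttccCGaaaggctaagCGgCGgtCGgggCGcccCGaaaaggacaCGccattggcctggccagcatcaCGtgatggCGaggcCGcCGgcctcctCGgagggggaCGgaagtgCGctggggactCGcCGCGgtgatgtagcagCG
The Dnmt3a promoter shown held 46 CG and the Tet2 promoter 57, against a median of 7 in all 32851 RefSeq promoters of this length. At 33 in Dnmt1 and 26 in Tdg the other promoters were also CG-rich, although 2 promoters of other annotated Dnmt1 starts held 2 and 12. Those of 2 other Dnmt3a starts held 47 and 18. The letters GGGCGG, searched on both strands, hold a CG themselves and so overlap the CG count. In the promoters shown they were found 6 times in Dnmt3a, 2 times in Dnmt1, 1 time in Tet2 and not in Tdg, and 35.7% of all promoters held them. A promoter of 300 bases is a small piece of a bin, and its own methylation was not measured here.

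The difference in 5mC between a gene and the DNA around it put both methyltransferase genes at the ends of the 8, in opposite directions. For each library the mean of the 100 kb bins over the gene, weighted by the bases of the gene in each, was set against the mean of the 10 bins within 500 kb on both sides. Dnmt1 exceeded its flanks by 0.169 (cortex), 0.138 (olfactory bulb) and 0.167 (cerebellum). Dnmt3a lay below its flanks by a difference of -0.159, -0.214 and -0.253 in the same order. The gene minus flank values of Dnmt1 stood at percentiles 99.7, 98.8 and 99.5 of 21711 protein-coding genes, and those of Dnmt3a at percentiles 4.78, 2.03 and 1.31. Tdg was close to Dnmt3a in cortex (-0.155, percentile 5.09), where their libraries overlapped, and Mbd2 was at percentile 4.69 in olfactory bulb. In all, 6 of the 8 genes were lower than their flanks in every tissue (limma, Benjamini-Hochberg adjusted p-value under 0.05), where 46.6%, 42.1% and 41.5% of all genes were lower in cortex, olfactory bulb and cerebellum. The members higher than their flanks were Dnmt1 and Tet1 in cortex and Dnmt1 in the other tissues, where 29.9%, 28.5% and 27.6% of all genes were higher. The median difference of the 8 genes was -0.0535, -0.0692 and -0.0604, against -0.0141, -0.0110 and -0.0102 over all genes. Genes that share bins are not independent.

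**Figure D1:**
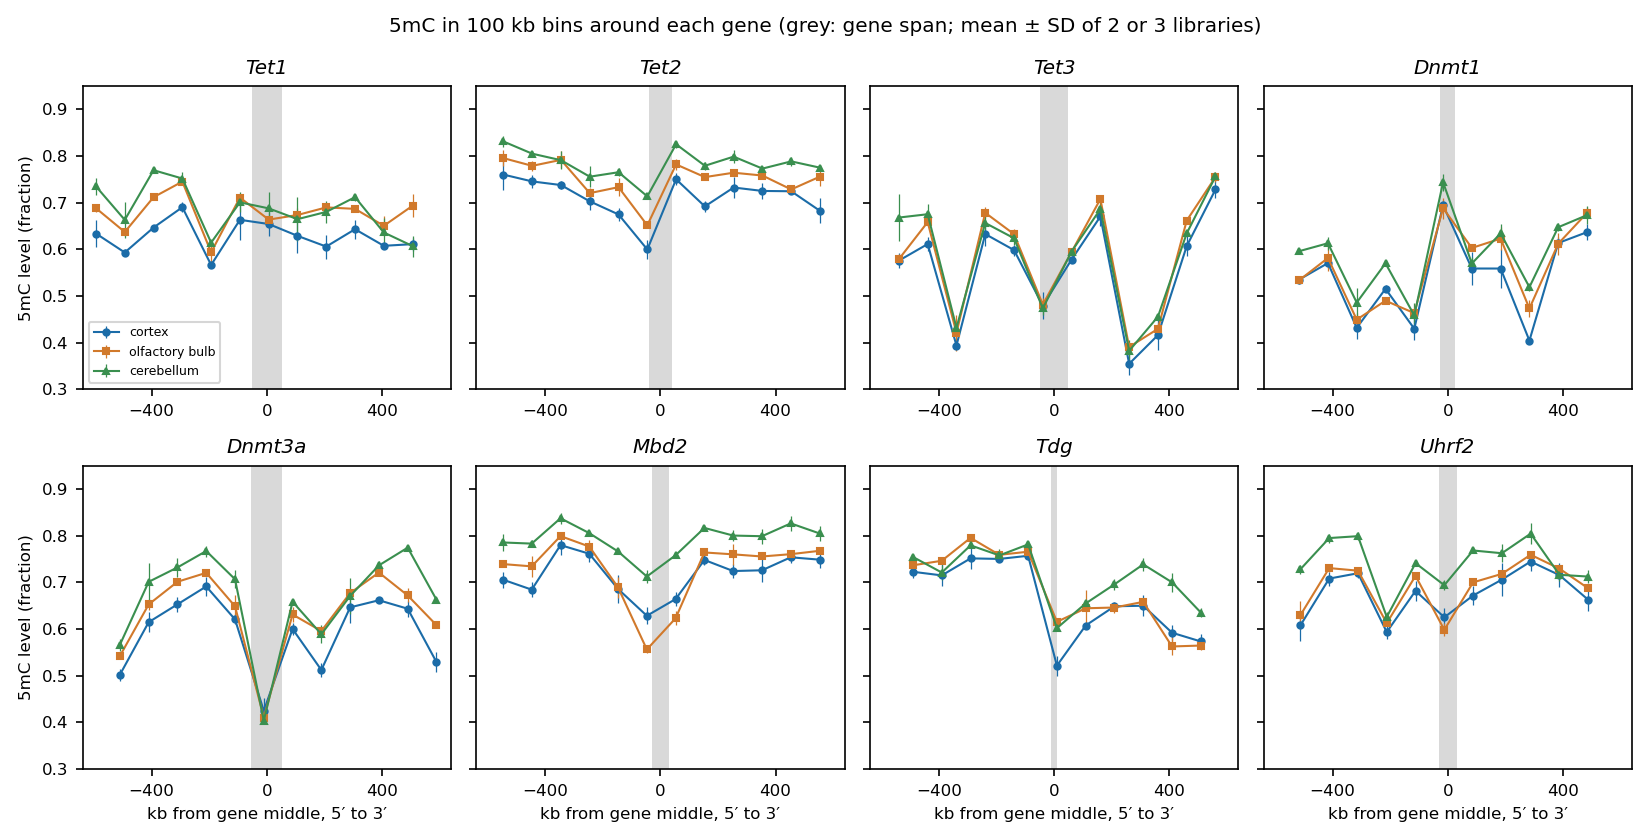
Mean 5mC level (fraction) with SD of each 100 kb bin, plotted by the distance of the bin from the middle of the gene in kb in the direction of transcription, for cortex (circles), olfactory bulb (squares) and cerebellum (triangles). The grey band is the span of the gene. The bin of Dnmt1 is the highest of 11 in all 3 tissues, and the bins of Dnmt3a, Tet2 and Mbd2 are the lowest of 12.

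Dnmt1 (ENSMUSG00000004099.16, minus strand, chr9:20907209-20959888) covered 52.7% of its single 100 kb bin, which also held S1pr2, and the bin was denser in CpG sites (1570) than 96.9% of bins. The 5mC level was 0.682, 0.699 and 0.702 in the cortex libraries, 0.704 and 0.672 in the olfactory bulb libraries and 0.756 and 0.731 in the cerebellum libraries. The means of the flanks were 0.525, 0.551 and 0.577 in the same order. The bin was thus the highest of its neighborhood of 11 bins in each tissue, cerebellum lay above the other tissues without overlap, and cortex and olfactory bulb overlapped. The SE of this fit was nearly the same for all 8 genes (0.117 to 0.118 against cortex), so its p-values rest on the spread over all bins more than on that of the gene. On the log2(level/(1 - level)) scale the bin changed by 0.35 ± 0.12 (SE) from cortex to cerebellum (limma, adjusted p = 0.00438) and by 0.40 ± 0.13 from olfactory bulb to cerebellum (adjusted p = 0.00778). Without cerebellum replicate 1 these changes were 0.26 (adjusted p = 0.132) and 0.30 (adjusted p = 0.169), and the latter was 0.29 without olfactory bulb replicate 2 (adjusted p = 0.214). Averaged over the 1 Mb bin, 5mC changed by 0.16 (adjusted p = 0.0624) and -0.02 (adjusted p = 0.888) in these comparisons. After each library was centred on its own median the cerebellum minus cortex change was -0.06 (adjusted p = 0.645), and the gene minus flank difference moved by -0.00205 ± 0.0141 between these tissues (adjusted p = 0.934).

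Dnmt3a (ENSMUSG00000020661.15, plus strand, chr12:3806007-3914443) covered 94.0% of its main bin, which held no other protein-coding gene, and 14.4% of the next, which also held Pomc and Efr3b. Over the gene, 5mC was 0.432, 0.476 and 0.436 in cortex, 0.447 and 0.433 in olfactory bulb and 0.443 and 0.433 in cerebellum. The tissues overlapped over the gene, while the mean of the flanks went from 0.608 in cortex to 0.654 in olfactory bulb and 0.691 in cerebellum. The gene minus flank values were -0.183, -0.141 and -0.155 in cortex, -0.208 and -0.221 in olfactory bulb and -0.260 and -0.246 in cerebellum, and no tissue overlapped another. The difference moved from cortex to cerebellum by -0.0935 ± 0.0137 (SE, limma, adjusted p = 0.00149), which passed in all 17 alternatives (highest adjusted p = 0.0242). From olfactory bulb to cerebellum it moved by -0.0387 ± 0.015 (limma, adjusted p = 0.0979). Between cortex and olfactory bulb it moved by -0.0549 ± 0.0137 (adjusted p = 0.0457), a call that was lost in 11 of the 17 (up to adjusted p = 0.194). Among them it was lost without cortex replicate 2 (-0.0454, adjusted p = 0.0956), cortex replicate 3 (-0.0526, adjusted p = 0.0801), olfactory bulb replicate 1 (-0.0613, adjusted p = 0.127), olfactory bulb replicate 2 (-0.0485, adjusted p = 0.194) or either cerebellum library (-0.0549, adjusted p = 0.0760). The main bin itself changed by -0.12 ± 0.12 on the log2 scale from cortex to cerebellum (adjusted p = 0.332). Relative to the library medians that change was -0.53 (adjusted p = 0.000193). The second bin rose by 0.36 ± 0.12 (adjusted p = 0.00343), and the average over the 1 Mb bin by 0.32 (adjusted p = 0.000203).

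**Figure D2:**
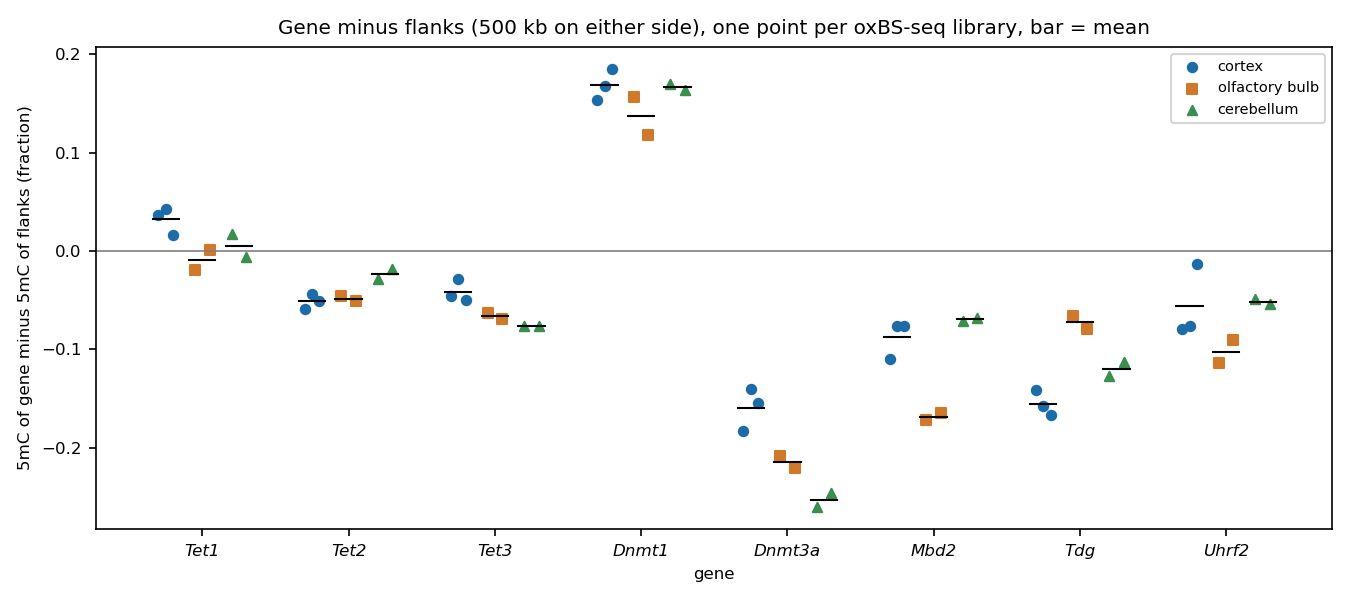
5mC of each gene minus the mean of its flanks (fraction), with 1 point for each oxBS-seq library and a bar at the tissue mean. Dnmt1 lies above 0 in all 7 libraries, and every other gene except Tet1 lies below 0 in all 7. Libraries of unlike tissues do not overlap for Dnmt3a, Tet3, Mbd2 and Tdg. Cerebellum is lowest for Dnmt3a and Tet3, olfactory bulb for Mbd2 and cortex for Tdg. Cerebellum against olfactory bulb was not called for Dnmt3a or Tet3, nor cortex against olfactory bulb for Tet3. Cerebellum against cortex was not called for Mbd2 or Tdg.

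The TET genes differed from each other. Tet1 was close to its flanks, Tet2 rose in 5mC from cortex to cerebellum as its flanks did, and Tet3 had overlapping levels in all tissues. Tet1 (ENSMUSG00000047146.17, minus strand, chr10:62804570-62908996) covered 95.4% of its main bin, with no other protein-coding gene in it, and 9.0% of the next. The 5mC level was 0.664, 0.676 and 0.625 in cortex, 0.664 and 0.671 in olfactory bulb and 0.713 and 0.665 in cerebellum, and the tissues overlapped. It was above its flanks by 0.0323 ± 0.00817 (SE) in cortex (limma, adjusted p = 0.00472), where all 3 libraries were above, and by 0.00736 (adjusted p = 0.416) against flanks of 1 Mb. In olfactory bulb the difference was -0.00920 (adjusted p = 0.429) and in cerebellum 0.00554 (adjusted p = 0.640). No pair of tissues passed the test at the main bin, although the cerebellum minus cortex change of 0.22 ± 0.12 on the log2 scale (adjusted p = 0.0770) passed without cortex replicate 2 (0.28, adjusted p = 0.0414) or cerebellum replicate 2 (0.39, adjusted p = 0.0185) and dropped to 0.06 without cerebellum replicate 1 (adjusted p = 0.762). The second bin, shared with Dna2, Rufy2 and Slc25a16, was higher in olfactory bulb than in cortex by 0.32 ± 0.12 (adjusted p = 0.0248). Averaged over the 1 Mb bin, 5mC was higher than in cortex by 0.31 in olfactory bulb (adjusted p = 0.00105) and by 0.20 in cerebellum (adjusted p = 0.0181).

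Tet2 (ENSMUSG00000040943.12, minus strand, chr3:133463679-133545139) covered 45.1% of its main bin, which holds the start of the gene, and 36.3% of the bin toward its end. Neither bin held another protein-coding gene. Over the gene, 5mC was 0.669, 0.682 and 0.649 in cortex, 0.711 and 0.708 in olfactory bulb and 0.765 and 0.762 in cerebellum. The 3 tissues were ordered without overlap, with cortex lowest and cerebellum highest. The main bin was lower than the other, at 0.607, 0.616 and 0.577 against 0.748, 0.764 and 0.739 in cortex. In cerebellum the main bin was at 0.711 and 0.716 and the other at 0.831 and 0.820. The main bin was the lowest of 12 bins in each tissue. Between cortex and cerebellum it rose by 0.73 ± 0.12 on the log2 scale (limma, adjusted p = 4.72e-09), and by 0.32 after centring on library medians (adjusted p = 0.00245). From olfactory bulb to cerebellum it rose by 0.41 ± 0.13 (adjusted p = 0.00503), or by 0.39 without olfactory bulb replicate 1 (adjusted p = 0.0725). Between cortex and olfactory bulb it rose by 0.32 ± 0.12 (adjusted p = 0.0226). That call was lost after centring (0.09, adjusted p = 0.422) and without cortex replicate 3 (0.25, adjusted p = 0.0708), olfactory bulb replicate 1 (0.34, adjusted p = 0.130) or olfactory bulb replicate 2 (0.29, adjusted p = 0.180). The mean of the flanks also rose, from 0.718 in cortex to 0.758 in olfactory bulb and 0.786 in cerebellum. The gene minus flank difference was -0.0510 for cortex, -0.0485 for olfactory bulb and -0.0229 for cerebellum, below 0 in each (adjusted p = 4.89e-05, 0.000358 and 0.0262). The cerebellum value was not past the threshold without cerebellum replicate 1 (-0.0178, adjusted p = 0.255) or replicate 2 (-0.0280, adjusted p = 0.0862), or against flanks of 250 kb (-0.0113, adjusted p = 0.273). Between tissues the difference was not called in any pair. From cortex to cerebellum it moved by 0.0281 ± 0.0102 (SE, limma, adjusted p = 0.0751). That change passed with the main bin alone (0.0454, adjusted p = 0.0191), flanks of 1 Mb (0.0300, adjusted p = 0.0480) or only genes of at least 20 kb (adjusted p = 0.0453).

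Tet3 (ENSMUSG00000034832.15, minus strand, chr6:83362373-83459084) covered 59.1% of its main bin, shared with Dguok, and 37.6% of the next, shared with Bola3, Mob1a, Mthfd2 and Slc4a5. Its 5mC level was 0.518, 0.536 and 0.498 in cortex, 0.531 and 0.520 in olfactory bulb and 0.528 and 0.513 in cerebellum. The tissues overlapped, and the mean was at percentiles 13.5, 10.5 and 9.31 of genes in cortex, olfactory bulb and cerebellum. At the main bin the change from cortex to cerebellum was -0.03 ± 0.12 on the log2 scale (limma, adjusted p = 0.802) and -0.44 relative to library medians (adjusted p = 0.000321). Below its flanks in every tissue, Tet3 differed from them by -0.0412 (cortex), -0.0659 (olfactory bulb) and -0.0762 (cerebellum). Against flanks of 250 kb the cortex value was -0.0123 (adjusted p = 0.166). Between cortex and cerebellum it moved by -0.0350 ± 0.0106 (SE, adjusted p = 0.0410), close to the threshold, and the call was lost in 10 of 17 alternatives. Among these it was lost without cortex replicate 1 (-0.0373, adjusted p = 0.0738), cortex replicate 2 (-0.0286, adjusted p = 0.0933), either olfactory bulb library (-0.0350, adjusted p = 0.0513), cerebellum replicate 1 (-0.0354, adjusted p = 0.178) or cerebellum replicate 2 (-0.0346, adjusted p = 0.194). The gene minus flank difference was not called from cortex to olfactory bulb (-0.0247, limma, adjusted p = 0.202) or from olfactory bulb to cerebellum (-0.0103, adjusted p = 0.571).

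Tdg (ENSMUSG00000034674.18, plus strand, chr10:82629828-82650799), the glycosylase gene, is the shortest and covered 21% of its bin, in which 1190007I07Rik, Glt8d2 and Hcfc2 took 47.4%. The 5mC level of the bin was 0.541, 0.526 and 0.498 in cortex, 0.615 and 0.616 in olfactory bulb and 0.602 and 0.602 in cerebellum. Cortex was lowest without overlap. On the log2 scale the bin was higher than in cortex by 0.55 ± 0.12 in olfactory bulb (limma, adjusted p = 5.64e-05) and by 0.47 ± 0.12 in cerebellum (adjusted p = 0.000138). Relative to library medians these changes were 0.33 (adjusted p = 0.00635) and 0.06 (adjusted p = 0.501). Averaged over the 1 Mb bin the former was 0.17 (adjusted p = 0.0603). The difference from the flanks gave the same order, at -0.155 ± 0.0131 (SD, n = 3) in cortex, -0.0725 ± 0.00953 (n = 2) in olfactory bulb and -0.120 ± 0.00974 (n = 2) in cerebellum. It was smaller in size in olfactory bulb than in cortex by 0.0828 ± 0.0116 (SE, adjusted p = 0.00417), which passed in all 17 alternatives (highest adjusted p = 0.0450). Cerebellum minus cortex was 0.0353 ± 0.0116 (limma, adjusted p = 0.055). Cerebellum minus olfactory bulb was -0.0475 ± 0.0127 (adjusted p = 0.0269). It was lost in 7 of the 17 alternatives, among them those without olfactory bulb replicate 1 (-0.0407, adjusted p = 0.125), olfactory bulb replicate 2 (-0.0542, adjusted p = 0.0586), cerebellum replicate 1 (-0.0406, adjusted p = 0.170) or cerebellum replicate 2 (-0.0544, adjusted p = 0.0827).

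Among the readers, Mbd2 (ENSMUSG00000024513.16, plus strand, chr18:70568189-70626131) was the gene called lower in olfactory bulb than in cortex. It covered 31.8% of its main bin, which also held Poli and Stard6, and 26.1% of the next. Over the gene, 5mC was 0.633, 0.663 and 0.638 in cortex, 0.585 and 0.589 in olfactory bulb and 0.740 and 0.727 in cerebellum. Olfactory bulb was lowest and cerebellum highest, with no overlap, whereas in the flanks cortex was lowest (0.732, against 0.755 and 0.803). On the log2 scale the main bin changed by -0.43 ± 0.12 from cortex to olfactory bulb (limma, adjusted p = 0.00187), by 0.55 ± 0.12 from cortex to cerebellum (adjusted p = 8.77e-06) and by 0.98 ± 0.13 from olfactory bulb to cerebellum (adjusted p = 2.07e-12). Without olfactory bulb replicate 2 the first was -0.40 (adjusted p = 0.0660), and averaged over the 1 Mb bin it turned to 0.06 (adjusted p = 0.492). Relative to library medians the cerebellum minus cortex change was 0.14 (adjusted p = 0.147). The gene minus flank difference was -0.0872 ± 0.0191 (SD, n = 3) in cortex, -0.168 ± 0.00536 (n = 2) in olfactory bulb and -0.0694 ± 0.00201 (n = 2) in cerebellum. Olfactory bulb minus cortex was -0.0810 ± 0.0125 (SE, adjusted p = 0.00664), or -0.0772 without olfactory bulb replicate 1 (adjusted p = 0.0585). Cerebellum minus olfactory bulb was 0.0989 ± 0.0137 (adjusted p = 0.00108), which passed in all 17 alternatives (highest adjusted p = 0.0138). Cerebellum minus cortex was 0.0179 ± 0.0125 (limma, adjusted p = 0.334).

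Uhrf2 (ENSMUSG00000024817.13, plus strand, chr19:30030513-30093722) covered 63.2% of its bin, of which Gldc and Trpd52l3 took 3.78%. The 5mC level was 0.608, 0.622 and 0.646 in cortex, 0.589 and 0.608 in olfactory bulb and 0.701 and 0.687 in cerebellum. Cerebellum was highest without overlap, and cortex and olfactory bulb overlapped. The bin was higher in cerebellum than in cortex by 0.44 ± 0.12 on the log2 scale (limma, adjusted p = 0.000344) and than in olfactory bulb by 0.61 ± 0.13 (adjusted p = 2.67e-05). Relative to library medians these changes were 0.03 (adjusted p = 0.805) and 0.42 (adjusted p = 0.00754). Olfactory bulb minus cortex was -0.16 (limma, adjusted p = 0.247), or -0.39 relative to library medians (adjusted p = 0.017). The difference from the flanks was -0.0797, -0.0758 and -0.0127 in cortex, -0.114 and -0.0903 in olfactory bulb and -0.0489 and -0.0539 in cerebellum, and cortex replicate 3 was far from the other cortex libraries. Olfactory bulb was lowest without overlap, while olfactory bulb minus cortex was -0.0462 ± 0.0191 (SE, limma, adjusted p = 0.184). Cerebellum minus olfactory bulb was 0.0509 ± 0.0209 (SE, adjusted p = 0.115) and passed without cortex replicate 3 (adjusted p = 0.0154). For cerebellum the gene was below its flanks by a difference of -0.0514 (adjusted p = 0.0110), a call not made without cerebellum replicate 1 (-0.0539, adjusted p = 0.0674) or replicate 2 (-0.0489, adjusted p = 0.0935).

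Counted over the 8 main bins, 5mC was higher in olfactory bulb than in cortex in 2 (Tet2 and Tdg), where 37.6% of all bins were higher, and lower in 1 (Mbd2), where 2.18% were lower. After centring on library medians Tdg was higher and Dnmt3a, Mbd2 and Uhrf2 were lower. The median change of the members was -0.01 on the log2 scale, against 0.22 over all bins. From cortex to cerebellum 5 bins rose (Dnmt1, Tet2, Tdg, Mbd2 and Uhrf2), where 71.9% of all bins rose and 4.44% fell, with a median of 0.40 against 0.43. Centred on library medians, which shifts the typical bin to 0, Tet2 was higher and Tet3 and Dnmt3a were lower. From olfactory bulb to cerebellum 4 rose (Dnmt1, Tet2, Mbd2 and Uhrf2), where 35.3% rose and 7.69% fell, with a median of 0.28 against 0.19. After centring, Tet2, Mbd2 and Uhrf2 were higher and Tet3 and Tdg lower. Between tissues, the gene minus flank difference was called higher in 1 gene and lower in 2 from cortex to olfactory bulb (3.59% and 2.86% of genes), lower in 2 from cortex to cerebellum (11.2%) and higher in 1 and lower in 1 from olfactory bulb to cerebellum (10.3% and 11.1%). The 3 comparisons share libraries, and each is given with its own values.

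**Figure D3:**
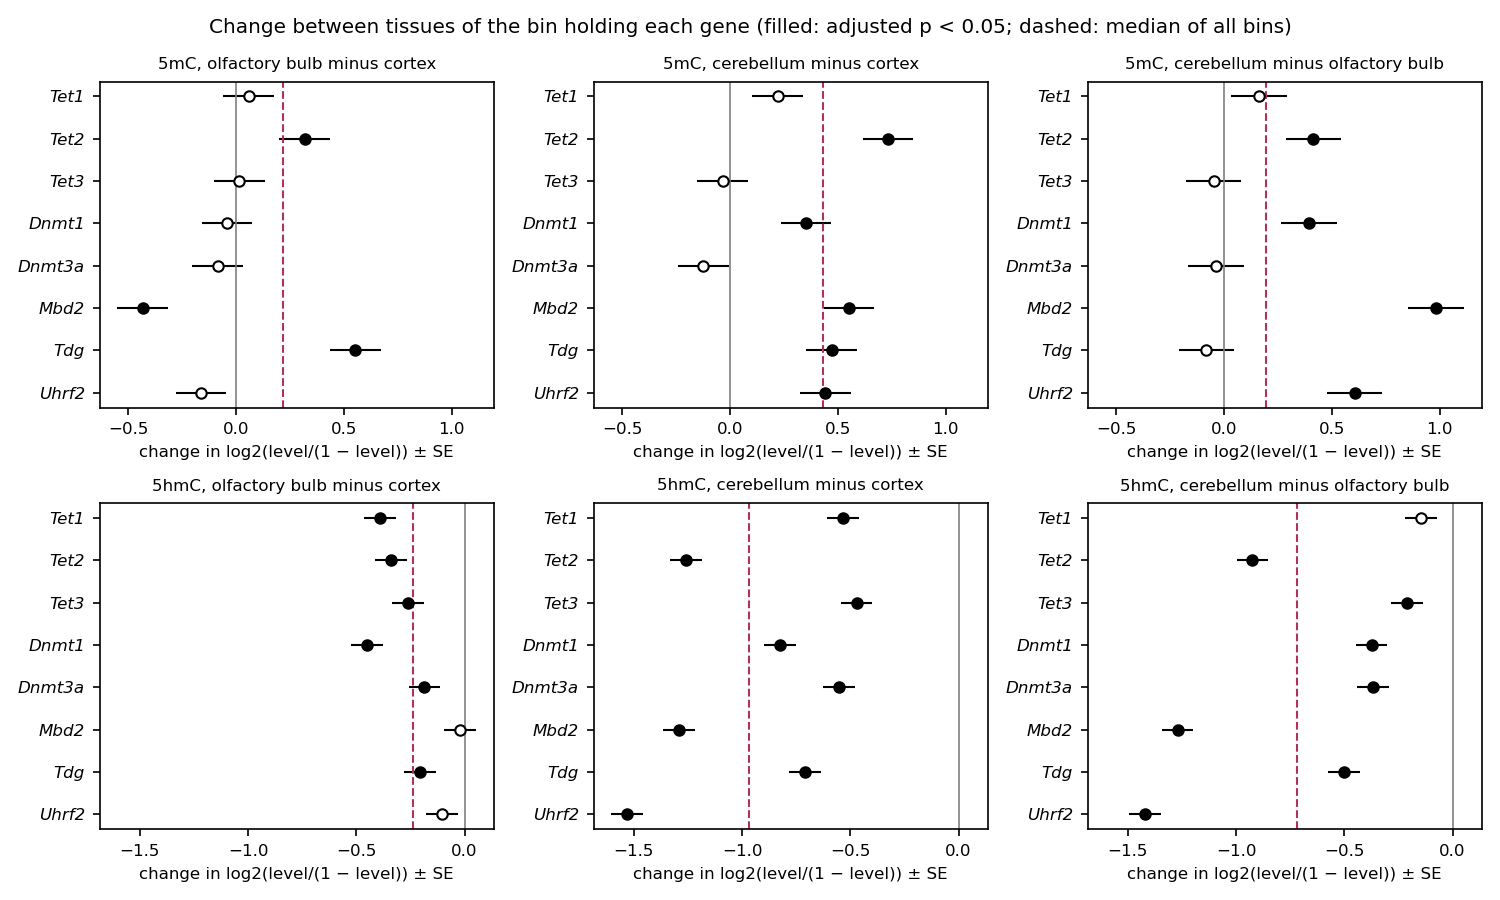
Change between tissues of the bin that holds each gene, as the difference in log2(level/(1 - level)) with its SE, for 5mC (upper row, 100 kb bins) and 5hmC (lower row, 1 Mb bins). Filled points have an adjusted p-value under 0.05 and the dashed line is the median of all bins. For 5hmC from cortex to cerebellum, Uhrf2, Mbd2 and Tet2 lie to the left of that median and the other 5 genes to the right, so that centring on library medians turns the direction of those 5.

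5hmC of the 1 Mb bins was lower in cerebellum than in cortex around all 8 genes, as in 97.6% of all 2581 bins, and after centring on library medians it was higher in 5 (Dnmt1, Dnmt3a, Tet1, Tet3 and Tdg) and lower in 3 (Tet2, Mbd2 and Uhrf2). The median change of the members was -0.77 on the log2(level/(1 - level)) scale, against -0.97 over all bins. Limma gave every member the same SE of 0.0732 in this fit, so its p-values do not reflect the spread of a single bin. An exact permutation of 3 against 3 libraries cannot give a p under 0.1. Replicate numbers for 5hmC are those of the TAB-seq libraries.

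Other protein-coding genes took 52.5% of the Uhrf2 bin, 21.7% of the Mbd2 bin and 30.2% of the Tet2 bin. The Uhrf2 bin had the highest mean 5hmC of the 8 in cortex, with libraries at 0.181, 0.193 and 0.170. It was at 0.167, 0.177 and 0.168 in olfactory bulb, which overlapped with cortex, and at 0.0693, 0.0709 and 0.0733 in cerebellum, the lowest mean of the 8 there, which overlapped with Dnmt1. The change from cortex to cerebellum was -1.53 (limma, adjusted p = 9.01e-95), and -0.49 after centring on library medians (adjusted p = 3.92e-09). From cortex to olfactory bulb it was -0.11 (adjusted p = 0.184), which passed without cortex replicate 3 (-0.16, adjusted p = 0.0412), was -0.05 without cortex replicate 2 and was 0.14 after centring (adjusted p = 0.000147). The Mbd2 bin was similar, at 0.165, 0.180 and 0.161 in cortex, 0.168, 0.169 and 0.163 in olfactory bulb and 0.0774, 0.0762 and 0.0766 in cerebellum. Its change was -1.29 from cortex to cerebellum (adjusted p = 8.60e-68) and -0.02 from cortex to olfactory bulb (adjusted p = 0.813), where the libraries overlapped and the centred change was 0.22 (adjusted p = 8.74e-05). The Tet2 bin was at 0.166, 0.181 and 0.162 in cortex, 0.136, 0.145 and 0.137 in olfactory bulb and 0.0754, 0.0788 and 0.0814 in cerebellum, and the tissues did not overlap. It changed by -1.26 from cortex to cerebellum (adjusted p = 2.21e-65).

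The bins of Tet3, Tet1 and Dnmt3a were above the median bin in 5hmC in cerebellum, and below or near it in cortex. Other protein-coding genes took 59.8%, 61.9% and 43.6% of these bins, in the same order. The Tet3 bin was at 0.167, 0.181 and 0.154 in cortex, 0.140, 0.148 and 0.142 in olfactory bulb and 0.123, 0.128 and 0.129 in cerebellum. Its change from cortex to cerebellum was the smallest of the 8, at -0.47 (limma, adjusted p = 1.52e-10), and 0.57 after centring on library medians (adjusted p = 1.27e-08). The Tet1 bin was at 0.173, 0.188 and 0.169 in cortex, 0.137, 0.144 and 0.141 in olfactory bulb and 0.124, 0.131 and 0.131 in cerebellum. It was the member whose bin was not called between olfactory bulb and cerebellum (-0.14, adjusted p = 0.0525), although the libraries did not overlap and the test passed without cortex replicate 2 (adjusted p = 0.00755), cortex replicate 3 (adjusted p = 0.0343) or olfactory bulb replicate 1 (-0.17, adjusted p = 0.0449). The Tet1 change also passed on the fraction scale (adjusted p = 0.0420), with all bins kept (0.0315), a trended robust fit (0.0242), the replicate block (0.0337) or only these 2 tissues (0.00908). After centring it was 0.66 (adjusted p = 5.82e-09). The Dnmt3a bin was at 0.174, 0.188 and 0.173 in cortex, 0.156, 0.169 and 0.155 in olfactory bulb and 0.125, 0.127 and 0.134 in cerebellum. From cortex to olfactory bulb it changed by -0.19 (adjusted p = 0.0180), or by -0.16 without olfactory bulb replicate 1 (adjusted p = 0.0787) or replicate 3 (adjusted p = 0.0966), and by 0.06 after centring (adjusted p = 0.0872).

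Dnmt1 and Tdg lay in the bins lowest in 5hmC among the members in cortex and olfactory bulb, but not both in cerebellum. Among all bins Tdg stood at percentiles 24.2 in cortex and 27.8 in olfactory bulb, and Dnmt1 at 14.8 in olfactory bulb. In cerebellum Dnmt1 was at percentile 33.7 and Tdg at 46.4. There Uhrf2 (33.1), Mbd2 (38.7) and Tet2 (39.9) also ranked below Tdg. The Dnmt1 bin was at 0.120, 0.126 and 0.115 in cortex, 0.0872, 0.0955 and 0.0904 in olfactory bulb and 0.0714, 0.0694 and 0.0745 in cerebellum, and its rank among all bins was at the 16.6th percentile in cortex. The Tdg bin was at 0.134, 0.147 and 0.131 in cortex, 0.119, 0.124 and 0.120 in olfactory bulb and 0.0865, 0.0876 and 0.0921 in cerebellum. Between cortex and cerebellum they changed by -0.83 (Dnmt1, limma, adjusted p = 4.34e-29) and -0.71 (Tdg, adjusted p = 6.44e-22), and by 0.22 and 0.33 after centring. The Dnmt1 bin also held 26 other protein-coding genes, which took 44.4% of it. In the Tdg bin other protein-coding genes took 37.9%.

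In the other comparisons, 5hmC was lower in olfactory bulb than in cortex in 6 of the 8 bins (all but Mbd2 and Uhrf2), where 67.7% of all bins were lower and 3.25% higher, with a median of -0.23 against -0.24. After centring, Tet1, Tet2 and Dnmt1 were lower and Mbd2 and Uhrf2 higher. From olfactory bulb to cerebellum it fell in 7 (all but Tet1), where 91.8% fell and 1.2% rose, with a median of -0.44 against -0.72. After centring, 5 were higher (Dnmt1, Dnmt3a, Tet1, Tet3 and Tdg) and 3 lower (Tet2, Mbd2 and Uhrf2).

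**Figure D4:**
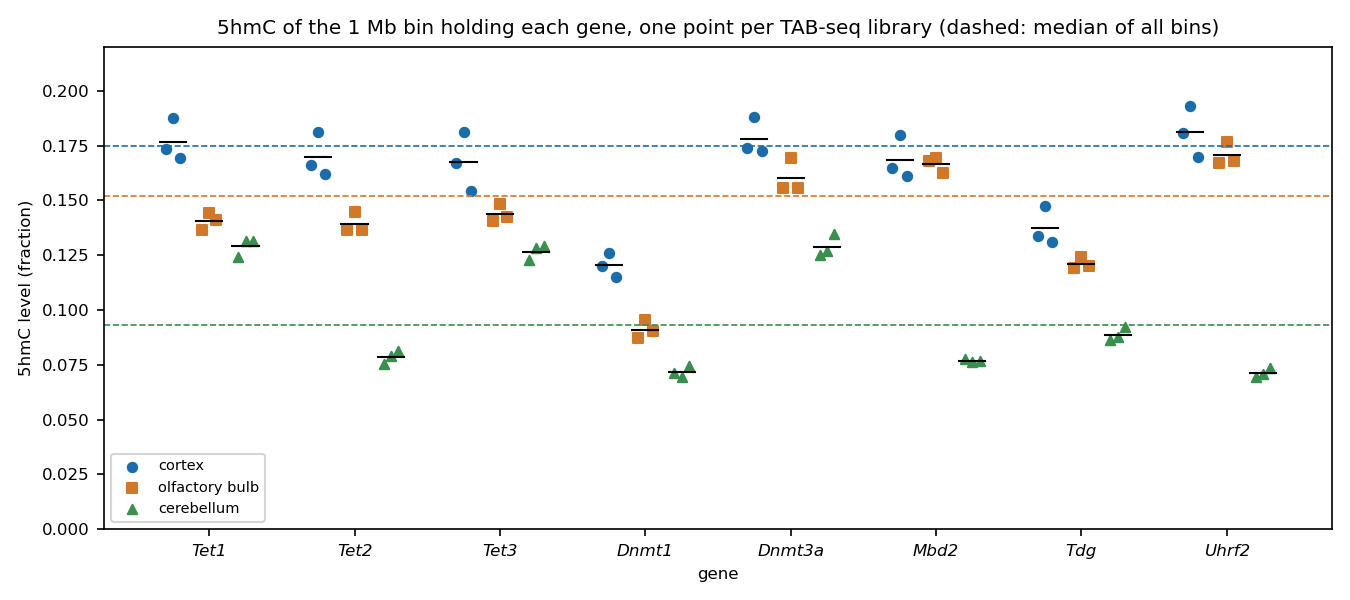
5hmC level (fraction) of the 1 Mb bin that holds each gene, with 1 point for each TAB-seq library, a bar at the tissue mean and a dashed line at the median of all bins in each tissue. In cerebellum the bins of Tet1, Tet3 and Dnmt3a lie above the median of 0.0931 and the other 5 below it.

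The 5hmC of each bin was set against the adjacent 1 Mb bins that the 500 kb flanks of the gene reached. For every gene but Tet2 these flanks reached a single bin on a single side. The Tet1 and Tet3 bins were above that neighbor in all cerebellum libraries. In the other tissues Tet1 was below it and Tet3 close to 0. The Tet3 bin minus its neighbor was 0.00452, 0.00627 and -0.00542 in cortex, 0.00219, 0.000575 and 0.000166 in olfactory bulb and 0.0425, 0.0466 and 0.0461 in cerebellum. For Tet1 the difference was -0.00405, -0.00470 and -0.00414 in cortex, -0.0229, -0.0213 and -0.0166 in olfactory bulb and 0.0177, 0.0193 and 0.0244 in cerebellum. Cerebellum did not overlap with the other tissues for either gene (p = 0.1 against cortex and against olfactory bulb by an exact two-sided permutation of libraries, which cannot give a smaller p at this size). The Dnmt3a bin lay below its neighbor in all 9 libraries, from -0.0453 in cortex to -0.0101 in cerebellum. The bins of Dnmt1 and Tdg were also below theirs throughout, by mean differences of -0.0572 and -0.0673 in cortex. Tet2 lay above its neighbors in all 9 libraries, by means of 0.0123, 0.00767 and 0.0195 in cortex, olfactory bulb and cerebellum. The Mbd2 bin went from below its neighbor in cortex (-0.0115) to above it in olfactory bulb (0.00666) and cerebellum (0.00782), and all libraries of a tissue lay on the side of their mean. Uhrf2 lay below its neighbor in all 9 libraries, by means of -0.0141, -0.00455 and -0.0228.

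The share of 5hmC in both modifications, 5hmC/(5hmC + 5mC) over the same 1 Mb bin, was estimated from the tissue means of the separate assays, with the error propagated from the SDs and no test. Its median over the 8 genes was 20% for cortex, 18.0% for olfactory bulb and 10.3% for cerebellum, and over all bins 20.5%, 17.7% and 11.1%. The Tet3 bin had the highest share in each tissue, at 24.0% ± 1.49, 20.5% ± 0.473 and 18.3% ± 0.511 (SD). The Uhrf2 bin went from 20.6% ± 1.10 in cortex to 8.51% ± 0.256 in cerebellum, and the Mbd2 bin from 19.2% ± 0.952 to 8.89% ± 0.118. In the Dnmt3a bin the share was 22.0% ± 0.930 in cortex and 15.9% ± 0.607 in cerebellum. The sum of both modifications ran from 0.699 in Tet3 to 0.880 in Uhrf2 and Mbd2 in cortex, and in cerebellum from 0.691 in Tet3 to 0.863 in Mbd2.

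Of 43 other genes of cytosine methylation, oxidation and repair, at most 11 were called for a change against their flanks in any pair of tissues. From cortex to olfactory bulb 1 was lower, Mbd5 (-0.0526 ± 0.00972 SE, limma, adjusted p = 0.0132). From cortex to cerebellum 7 were higher and 3 lower, among them Zbtb38, a protein that binds methylated CpG (0.0730 ± 0.0145, adjusted p = 0.00716), Neil2, a repair glycosylase (0.0711 ± 0.0144, adjusted p = 0.00786), and Cxxc5, a CXXC zinc finger gene (-0.0450 ± 0.0136, adjusted p = 0.0400). From olfactory bulb to cerebellum 8 were higher and 3 lower, led by Mbd5 (0.0824 ± 0.0106, adjusted p = 0.000736). The median of the list was 0.00552, 0.00872 and 0.0109 in the 3 comparisons, against 0.00170, 0.000460 and -0.00170 over all genes, and the shares called among all genes are those given above (12.2% higher from cortex to cerebellum). Within tissues, the number of the 43 called below their flanks was 28 for cortex, 24 for olfactory bulb and 19 for cerebellum, where 46.6%, 42.1% and 41.5% of all genes were below. The number above was 6, 8 and 4, where 29.9%, 28.5% and 27.6% of all genes were above.

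By the smallest root mean square difference of 5mC over the 7 oxBS-seq libraries, among 4986 to 4995 candidates at least 50 kb long and at least 2 Mb away, the most alike gene was Sardh for Dnmt1 (0.0102), Srrm3 for Dnmt3a (0.0121), Kiz for Tet1 (0.00789), Gli3 for Tet2 (0.00545), Dnaic1 for Tet3 (0.0103), Myo9b for Tdg (0.0145), Lix1 for Mbd2 (0.0112) and AU040320 for Uhrf2 (0.0158). Lix1 resembled Mbd2, with mean 5mC of 0.651, 0.597 and 0.741 in the order cortex, olfactory bulb and cerebellum. Gli3 followed Tet2, with 0.665, 0.705 and 0.755 in the same order. Srrm3 resembled Dnmt3a, at 0.452, 0.442 and 0.454.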

How the data were processed

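Per the labels and the methods, the authors mapped oxBS-seq and TAB-seq reads to mm10 with Bismark (version not given in the sources used here), called a CpG site modified where its coverage was at least 5 and an adjusted binomial p-value was at most 0.05, and deposited the fraction of reads called modified in each bin, 100 kb for 5mC and 1 Mb for 5hmC, per library without pooling. The way in which sites were joined into a bin and whether those criteria filtered the binned levels are not given, and the files hold no depth for a bin. Genes were placed with GENCODE vM21. Levels were tested with limma 3.58.1 (R 4.3.3) on log2(level/(1 - level)) over all bins between 0 and 1 in every library, with the tissues of an assay in 1 fit, and gene minus flank differences on the fraction scale over all protein-coding genes with at least 5 flank bins. P-values were Benjamini-Hochberg adjusted over all bins or genes, and an adjusted p under 0.05 was called. The call of a gene is that of the bin it overlapped most. Centring subtracts the median of each library. The fits were also run on simulated data in which bins or genes varied independently with the same spread. Those data held no shift of a whole library, so they cannot show how the fits handle one. Tables were joined with Python 3.11.15, pandas 2.3.3 and SciPy 1.17.1. All 8 genes are named, and genes of the pathway list of 43 were named from those past the threshold. The rule for the members uses no measured value, but the members, lists and tests were proposed with earlier results of these data known. Alternatives were other scales, centring, filters, flanks, weights, replicate blocks and leaving out each library. One oligodendrocyte marker is not reported here.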

Additional observations from a re-analysis of the deposited data

Results flagged for a closer look

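The difference between 5mC of a gene and of its flanks differed between tissues in 4 of the 8 genes by limma. In Dnmt3a it moved by -0.0549 from cortex to olfactory bulb (adjusted p = 0.0457) and by -0.0935 from cortex to cerebellum (adjusted p = 0.00149). In Tet3 it moved by -0.0350 from cortex to cerebellum (adjusted p = 0.0410). In Mbd2 it moved by -0.0810 from cortex to olfactory bulb (adjusted p = 0.00664) and by 0.0989 from olfactory bulb to cerebellum (adjusted p = 0.00108). In Tdg it moved by 0.0828 from cortex to olfactory bulb (adjusted p = 0.00417) and by -0.0475 from olfactory bulb to cerebellum (adjusted p = 0.0269). Of these, Dnmt3a from cortex to cerebellum, Mbd2 from olfactory bulb to cerebellum and Tdg from cortex to olfactory bulb were past the threshold in all 17 alternatives.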

How the results depend on the processing

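Levels without read counts and bins wider than most genes limit what can be said of a single gene, and with 2 or 3 libraries a tissue 1 library can decide a call. The cause of each change below was not tested. On the log2 scale, centring on library medians left 1 bin called higher and 3 lower for 5mC from cortex to olfactory bulb, 1 higher and 2 lower from cortex to cerebellum, and 3 higher and 2 lower from olfactory bulb to cerebellum. For 5hmC it gave 2 higher and 3 lower, 5 higher and 3 lower, and 5 higher and 3 lower in the same order of comparisons. It turned 5mC of Tet1 to -0.166, -0.188 and -0.0215 in this order, of Tet3 from cortex to olfactory bulb to -0.211 and of Dnmt1 from cortex to cerebellum to -0.0561. It turned 5hmC from cortex to olfactory bulb to 0.0552 (Dnmt3a), 0.221 (Mbd2), 0.0333 (Tdg) and 0.135 (Uhrf2). Between cortex and cerebellum 5hmC turned to 0.507 (Tet1), 0.572 (Tet3), 0.218 (Dnmt1), 0.490 (Dnmt3a) and 0.334 (Tdg), and from olfactory bulb to cerebellum to 0.658, 0.592, 0.428, 0.434 and 0.301 for the same genes.

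Averaging 5mC into 1 Mb bins left 0 bins called lower from cortex to olfactory bulb by limma, and 3 higher (Tet1, Tet2 and Dnmt3a). It gave 7 higher from cortex to cerebellum (all but Dnmt1) and 3 from olfactory bulb to cerebellum (Tet2, Mbd2 and Uhrf2). It turned the change from cortex to olfactory bulb to 0.178 (Dnmt1), 0.190 (Dnmt3a), 0.0626 (Mbd2) and 0.0511 (Uhrf2), the change from cortex to cerebellum to 0.197 (Tet3) and 0.319 (Dnmt3a), and the change from olfactory bulb to cerebellum to -0.105 (Tet1), 0.0440 (Tet3), -0.0173 (Dnmt1), 0.128 (Dnmt3a) and 0.0809 (Tdg).

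Deviations of same-numbered libraries correlated at -0.0932 to 0.029 for 5mC (6 pairs) and -0.191 to 0.429 for 5hmC (9 pairs, 3 of them over 0.1). The 3 were olfactory bulb with cerebellum at replicates 1 (0.391) and 2 (0.429), and cortex with olfactory bulb at replicate 1 (0.331). Pairs of unlike numbers ran from -0.408 to 0.276 for 5hmC. With 2 or 3 libraries a tissue these values cannot decide whether same-numbered libraries came from the same mouse. With the replicate block, 1 bin was called higher in 5mC from cortex to olfactory bulb, and Tet1 and Tet3 turned to -0.0323 and -0.0615. With the block, gene minus flanks was lower in 1 gene from cortex to olfactory bulb and in 1 from cortex to cerebellum, higher in 2 from olfactory bulb to cerebellum, and Dnmt1 turned to 0.00599 from cortex to cerebellum. With a block of the numbers in the library names, 1 gene was lower from cortex to cerebellum and 0 from olfactory bulb to cerebellum. There, gene minus flanks turned to -0.00152 (Tet2, cortex to olfactory bulb), -0.00237 (Uhrf2) and 0.00367 (Dnmt1, both cortex to cerebellum). The bins turned to 0.0268 (Tet3, cortex to cerebellum), 0.0188 (Tet3) and 0.0738 (Dnmt3a, both olfactory bulb to cerebellum).

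For gene minus flanks from cortex to olfactory bulb, 1 gene was lower with a trended robust fit, with flanks of 250 kb (at least 3 bins) or 1 Mb, and with all bins kept. Between cortex and cerebellum 1 was lower with the trended robust fit or flanks of 250 kb. There, 1 was higher with the main bin alone, 1 with flanks of 250 kb, 2 with flanks of 1 Mb and 2 among genes of at least 20 kb. From olfactory bulb to cerebellum 0 were lower with flanks of 250 kb or 1 Mb, and 2 higher with 1 Mb. In cortex 1 was above its flanks with 1 Mb. Flanks of 1 Mb turned Mbd2 to -0.000453, Uhrf2 to -0.00476 and Dnmt1 to 0.0267 from cortex to cerebellum, and Tet1 within cerebellum to -0.0107. Flanks of 250 kb turned Tet3 to 0.00525 from olfactory bulb to cerebellum. The log2 ratio scale turned Tet2 to -0.0109 from cortex to olfactory bulb, and Uhrf2 to -0.0225 and Dnmt1 to 0.0489 from cortex to cerebellum. With 5mC over the gene in place of the 1 Mb bin, the median 5hmC share was 21%, 19.4% and 11.2%.

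Leaving out 1 library at a time, the number of 5mC bins called was 1 to 2 higher and 0 to 1 lower from cortex to olfactory bulb, 4 to 6 higher from cortex to cerebellum and 3 to 4 higher from olfactory bulb to cerebellum. For 5hmC it was 5 to 7, 8 and 7 to 8 lower. For gene minus flanks it was 1 higher and 0 to 2 lower, 1 to 2 lower, and 1 to 2 higher and 0 to 1 lower. Within tissues 2 were above and 6 below in cortex, 1 and 6 in olfactory bulb, and 1 and 4 to 6 in cerebellum. The median 5hmC share was 19.4% to 20.4%, 17.8% to 18.1% and 10.1% to 10.4%. No change past the threshold turned in direction under these omissions. Changes that missed it and crossed 0 ranged, for 5mC bins from cortex to olfactory bulb, from -0.0323 to 0.121 (Tet1), -0.0615 to 0.101 (Tet3), -0.151 to 0.0662 (Dnmt1) and -0.144 to 0.0105 (Dnmt3a). From cortex to cerebellum Tet3 ranged from -0.109 to 0.0532, and from olfactory bulb to cerebellum Tet1 from -0.00380 to 0.328, Tet3 from -0.109 to 0.0131 and Dnmt3a from -0.0944 to 0.0177. For 5hmC, Mbd2 ranged from -0.0570 to 0.0368 from cortex to olfactory bulb. For gene minus flanks, Tet2 ranged from -0.00130 to 0.00601 from cortex to olfactory bulb, Dnmt1 from -0.00963 to 0.00599 and Uhrf2 from -0.00713 to 0.0263 from cortex to cerebellum, and Tet1 from -0.0197 to 0.00125 within olfactory bulb and from -0.00638 to 0.0175 within cerebellum.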
